A study of Mus musculus with 9 samples.

Results

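The comparison set the region that the labels call target against the neighbouring region that they call dorsal, in the brainstem of 3 mice. It used 6 of the 9 arrays of the series, 3 from target and 3 from dorsal, chosen by their labels. All mice were male, 8 weeks old and of the Chat-Cre:Ai9 strain, so that every group carried the same alleles and none had a treatment. Chat-Cre drives Cre recombinase from the gene of the acetylcholine-synthesizing enzyme, and Ai9 makes the red protein tdTomato wherever Cre has acted. The remaining 3 arrays came from a region called ventral. They entered the estimate of spread and are given as a further level where that places a gene. No source used here says what the target region was or how its tissue was taken. RNA came from whole tissue of each region, so fewer cells of a type and less RNA per cell cannot be told apart. Arrays with the same number came from 1 mouse.

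The brainstem holds many small nuclei whose neurons are told apart by the transmitter or peptide they release. Galanin, neurotensin and the peptides of the Calca gene are made as precursors, stored in dense-core vesicles and released to act on G-protein-coupled receptors. Noradrenaline neurons of the locus coeruleus in the dorsal pons take up their transmitter through the transporter Slc6a2, and many of them also make galanin. Myelin-forming oligodendrocytes make up much of the RNA of fibre-rich tissue, so that a shift in white matter changes many transcripts at the same time.

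Of 45281 probes on the array, 19032 had a detection score above 0.95 on at least 3 of the 6 arrays and were tested, under 13459 gene names. The score compares a probe with the negative control beads of the same array. Levels and differences are log2 of background-corrected, quantile-scaled intensity, so that 1 unit is a doubling. Each array read a probe from a median of 44 or 45 beads. The number above background was 17997, 19129 and 19945 on dorsal arrays 1, 2 and 3 and 18668, 19172 and 16842 on target arrays 1, 2 and 3. Target array 3 was thus lowest, and its unnormalized median intensity of 219.3 was the highest of the 6, which ran from 146.1. Over the tested probes, pairs of arrays within a region correlated between 0.94 and 0.96, and a target and a dorsal array of the same mouse between 0.929 and 0.949. With 3 arrays per region the precision of each value is limited, and nothing in the sources says whether the arrays differed in day or chip.

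Probes above background on all 3 arrays of 1 region and on none of the other numbered 69 for target and 180 for dorsal. These counts move with the number of probes above background per array, and the part of that in them was not tested. The labelled tissue was checked against marker genes. All 5 pan-neuronal markers were above background, with a mean level from 9.85 to 10.18 on target arrays and from 9.76 to 9.99 on dorsal arrays. The forebrain markers Tbr1 and Emx1 and the cerebellar granule cell markers Gabra6 and Cbln3 were above background on 0 of the 6 arrays. In the same panels Neurod6, of the forebrain, was above background on 1 dorsal array, while the cerebellar genes Cbln1 and Pcp2 were above it on all 6 and on 5.

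Promoter sequences of the gene with the largest difference, Cdkn2d, of the peptide gene that passed, Gal, and of Nts, the neurotensin precursor gene that the series title concerns, are shown for orientation. They are from RefSeq on mouse build GRCm38.p6, 5′ to 3′ on the strand of the gene, from 250 bases before to 50 bases after the start site. Capitals mark the GC box GGGCGG on either strand, or in Nts the AP-1 heptamer TGANTCA. The array files name no build, and no probe position is given.
Cdkn2d (chr9:21291160-21291459, minus strand): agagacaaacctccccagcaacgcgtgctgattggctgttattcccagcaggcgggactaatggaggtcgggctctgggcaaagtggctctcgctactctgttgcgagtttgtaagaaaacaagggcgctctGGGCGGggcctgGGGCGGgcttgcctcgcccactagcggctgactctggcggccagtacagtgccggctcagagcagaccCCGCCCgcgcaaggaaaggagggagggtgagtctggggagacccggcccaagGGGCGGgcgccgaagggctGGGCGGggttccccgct
Gal (chr19:3414495-3414794, minus strand): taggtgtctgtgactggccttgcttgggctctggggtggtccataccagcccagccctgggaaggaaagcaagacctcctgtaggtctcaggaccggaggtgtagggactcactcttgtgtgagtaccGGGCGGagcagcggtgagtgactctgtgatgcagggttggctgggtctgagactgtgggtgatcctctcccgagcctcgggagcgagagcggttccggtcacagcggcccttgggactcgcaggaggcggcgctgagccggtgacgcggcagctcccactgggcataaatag
Nts (chr10:102490369-102490668, minus strand): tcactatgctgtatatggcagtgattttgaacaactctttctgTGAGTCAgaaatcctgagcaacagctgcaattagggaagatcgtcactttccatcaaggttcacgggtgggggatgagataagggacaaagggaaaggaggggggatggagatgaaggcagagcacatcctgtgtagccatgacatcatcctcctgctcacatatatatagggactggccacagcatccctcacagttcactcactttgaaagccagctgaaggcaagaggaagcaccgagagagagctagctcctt
The Cdkn2d window held 5 GC boxes at a GC content of 66.3%, the Gal window 1 at 63.3%, and the Nts window 0 at 49.0% with 1 AP-1 heptamer. A GC box was present in the windows of all 18 genes with a probe that passed and a promoter record, in 66.8% of 8512 tested genes with a record and in 35.7% of all 32851 records. The AP-1 heptamer was in 1 of the 18, in 6.27% of the tested genes and in 7.81% of all records. The cAMP response element TGACGTCA was in 2 of the 18, in 3.54% of the tested genes and in 1.79% of all records. A match is a run of letters and not a known site of binding, and no test was made of these shares.

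Few probes passed between target and dorsal. By limma with Benjamini-Hochberg adjustment over the 19032 probes, 29 passed at the limit of 0.05 (0.152% of those tested). Of these, 21 were higher in target (0.11%) and 8 were lower (0.042%), at sizes from 1.08 to 3.24. For comparison, the median difference of all probes was -0.017, the median size 0.23 and the median standard error (SE) 0.26. The groups did not overlap in any of the 29, and the sign was the same in all 3 mice. Those 2 properties are common, since 17.6% of all tested probes did not overlap (8.31% with target above dorsal and 9.34% with target below) and 33.9% had 1 sign in all mice. Differences of at least 1 unit, passing or not, were found in 260 probes on the higher side and 203 on the lower side.

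The number that passed rested heavily on the set of arrays. With the mouse as a block 7 passed (0.0368%), all among the 29. They were Cdkn2d, Adssl1, Guk1, Extl3, Trak2 and the clone D130067N01RIK, which were higher in target, and the probe named RBMY1A1, which was lower. The other 22 had an adjusted p from 0.0812 to 0.162 with the block. Leaving out dorsal array 1, 2 or 3 left 2, 3 and 3 passing probes. Leaving out target array 1, 2 or 3 left 2, 4 and 3, and leaving out any 1 ventral array left 2. Only Cdkn2d and Adssl1 passed in all 9 of those fits. The balance of directions rested on the scaling, since median centring gave 4 higher and 15 lower in target, against 21 and 8. A fit of the 6 target and dorsal arrays alone left Cdkn2d as the 1 probe passing. All 27 other calls below are to be read with this in view.

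**Figure D1:**
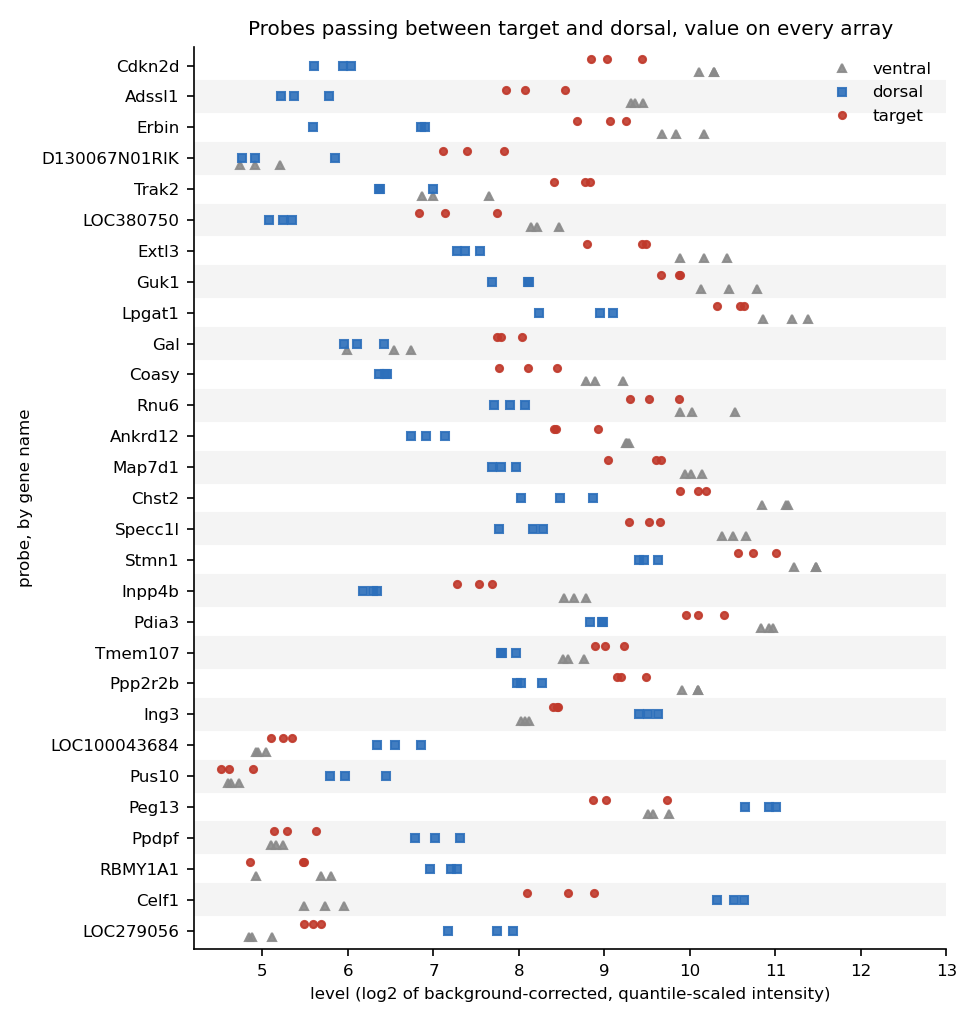
Level of each of the 29 passing probes on every array, in log2 of background-corrected, quantile-scaled intensity, ordered by the target minus dorsal difference from Cdkn2d (3.24) down to LOC279056 (-2.03). Circles are target, squares dorsal and triangles ventral arrays (3 each), and no target circle lies within the range of the dorsal squares of the same probe.

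**Figure D2:**
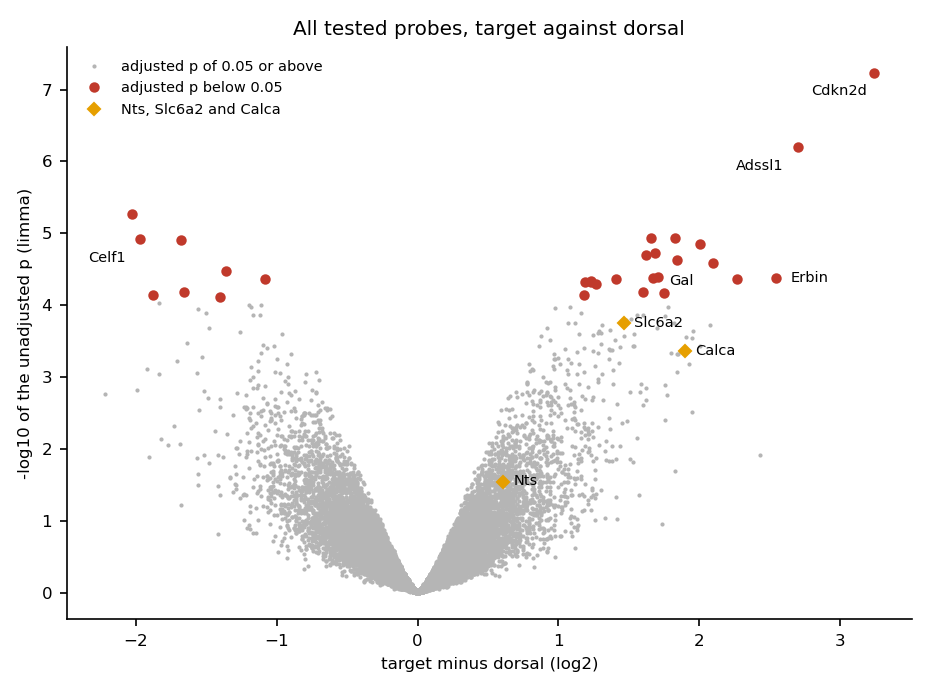
Target minus dorsal difference (log2, horizontal) against -log10 of the unadjusted limma p (vertical) for all 19032 tested probes. The 29 red points passed after adjustment, and Cdkn2d and Adssl1 stand above the rest, while Nts, Slc6a2 and Calca (diamonds) did not pass.

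Cdkn2d, which encodes the p19 inhibitor of the cyclin D kinases Cdk4 and Cdk6, had the largest difference. It read 9.44, 9.03 and 8.84 on target arrays 1, 2 and 3 and 5.94, 6.03 and 5.60 on the dorsal arrays. Every target array was thus far above every dorsal array, though all 6 were above background. The level was 9.47-fold higher in target (difference 3.24, SE 0.21, n = 3 arrays per region, adjusted p = 0.00113, and 0.00641 with the mouse block). The 3 mice gave 3.50, 3.0 and 3.23. The ventral mean was higher again, at 10.22, and target minus ventral was -1.12 (adjusted p = 0.0335). The array held 1 probe for the gene, so no second probe bears on it. Among 15 measured genes of cyclin-dependent kinase inhibitors and the cell cycle, Cdkn2d was the only one that passed, and the median of the list was -0.13 (all genes -0.02). Of its relatives, Cdkn1b gave 0.72 (SE 0.29, adjusted p = 0.447) and Cdkn1c gave -1.14 (SE 0.48, adjusted p = 0.471), neither of which passed. A second Cdkn1b probe gave 0.04 (SE 0.36, adjusted p = 0.98).

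Adssl1 encodes the muscle-type adenylosuccinate synthase, which commits inosine monophosphate to adenine nucleotides. Its probe 1770468 read 8.54, 7.85 and 8.07 in target and 5.78, 5.22 and 5.37 in dorsal. Only dorsal array 1 was above background among the dorsal arrays, while all target arrays were. The difference was 2.70 (SE 0.22, n = 3, adjusted p = 0.00604, and 0.0105 with the block), and the ventral mean was 9.37. A second Adssl1 probe (3190689) read 8.32, 7.82 and 8.29 in target and 8.00, 7.67 and 7.60 in dorsal. Its groups overlapped, and its difference of 0.39 did not pass (SE 0.22, adjusted p = 0.596). Guk1, the guanylate kinase gene, read 9.89, 9.66 and 9.87 in target and 8.11, 7.69 and 8.12 in dorsal by probe 6560598. This gap of 1.83 (SE 0.21, adjusted p = 0.0332, and 0.044 with the block) was narrow within each region. The other Guk1 probe gave 0.08 (SE 0.17, adjusted p = 0.91). Coasy, which carries out the last steps of coenzyme A synthesis, read 8.44, 8.11 and 7.77 in target and 6.46, 6.36 and 6.43 in dorsal. The dorsal arrays were nearly equal, and the difference was 1.69 (SE 0.21, adjusted p = 0.0384, but 0.0857 with the block).

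In the list of purine nucleotide synthesis and interconversion, with 17 measured genes each represented by its brightest probe, none passed, and the median was -0.01. An unadjusted p below 0.05 was found in 23.5% of them, 3 higher and 1 lower in target, against 10.1% of all genes. Prps2, which makes the ribose precursor of purines, gave 0.66 (SE 0.21, adjusted p = 0.355), and Pfas, an enzyme of purine ring assembly, gave 0.76 (SE 0.31, adjusted p = 0.461). A second Pfas probe gave -0.38 (SE 0.21, adjusted p = 0.581). Adsl, the enzyme that acts just after Adssl1, gave -0.65 (SE 0.27, adjusted p = 0.471), with 2 of 3 target arrays above background. The related synthase gene Adss, named after its values were seen, gave -1.05 (SE 0.51, adjusted p = 0.537). Its regions did not overlap, and its sign was opposite to that of Adssl1. Of 9 measured genes of coenzyme A synthesis, Coasy was the 1 that passed. An unadjusted p below 0.05 was found in 33.3% of them, 2 higher and 1 lower, with Coasy itself among the 2. Both lists were chosen with earlier results of these data known, so neither share is separate support for a pathway. Slc5a6, a carrier of the vitamin precursor pantothenate, gave 0.69 (SE 0.21, adjusted p = 0.319) and Pank4, of the pantothenate kinase family, -0.65 (SE 0.23, adjusted p = 0.377).

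Trak2, an adaptor that couples mitochondria to kinesin, read 8.41, 8.77 and 8.83 in target and 6.37, 7.0 and 6.36 in dorsal. The difference was 2.10 (SE 0.27, adjusted p = 0.0409, and 0.044 with the block). It exceeded the ventral mean of 7.17 as well, by 1.5 (adjusted p = 0.0323), which made target the highest of the 3 regions. Other Trak2 probes gave 0.68 (SE 0.30, adjusted p = 0.493) and 0.49 (SE 0.28, adjusted p = 0.596). Erbin, a scaffold that binds the receptor ErbB2, read 9.25, 8.68 and 9.07 in target and 5.59, 6.86 and 6.90 in dorsal, where array 1 was not above background. The dorsal spread was wide, and the difference of 2.55 had the largest SE of the 29, at 0.35 (adjusted p = 0.0413, but 0.155 with the block). A second Erbin probe gave -0.07 (SE 0.32, adjusted p = 0.96).

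Stmn1, the microtubule-destabilizing protein stathmin, read 11.01, 10.74 and 10.56 in target and 9.41, 9.63 and 9.46 in dorsal (difference 1.27, SE 0.18, adjusted p = 0.0427). Map7d1, a microtubule-associated protein, differed by 1.62 (SE 0.20, adjusted p = 0.0384), and its other probes by 0.32 and 0.18. Specc1l, which links actin and microtubules, differed by 1.41 (SE 0.19, adjusted p = 0.0413), while its other probe, on which all 6 arrays were above background, gave -0.57 (SE 0.30, adjusted p = 0.565). All 3 of these had an adjusted p of 0.155 with the block.

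Extl3 starts heparan sulfate chains, and Chst2 adds sulfate to glycan chains. Extl3 read 9.44, 8.80 and 9.49 in target and 7.37, 7.28 and 7.55 in dorsal by probe 610528. The difference was 1.84 (SE 0.23, adjusted p = 0.0402, and 0.044 with the block). Of 3 other Extl3 probes, 1 gave 1.13 (SE 0.21, unadjusted p = 0.00045, adjusted p = 0.093), and the rest gave 0.26 and -0.16. Chst2 differed by 1.6 (SE 0.23, adjusted p = 0.048), the protein disulfide isomerase gene Pdia3 by 1.23 (SE 0.17, adjusted p = 0.0413), and Lpgat1, an acyltransferase of lysophospholipids, by 1.75 (SE 0.25, adjusted p = 0.048). The last had a second probe at -0.07 (SE 0.17, adjusted p = 0.923). With the block, Chst2, Pdia3 and Lpgat1 each had an adjusted p of 0.155.

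Inpp4b, a phosphatase of phosphoinositide lipids, was 1.23 higher in target (SE 0.17, adjusted p = 0.0413). Ppp2r2b, a brain-rich regulatory subunit of protein phosphatase 2A, was 1.18 higher (SE 0.17, adjusted p = 0.048). Its other probes gave 0.42 and 0.02. Ankrd12, an ankyrin repeat cofactor in the nucleus, read 8.93, 8.41 and 8.43 in target and 6.91, 7.13 and 6.74 in dorsal. This difference of 1.66 (SE 0.20, adjusted p = 0.0332) was joined by positive values at all 3 of its other probes, 0.36, 0.59 and 0.43, of which the middle one had an unadjusted p of 0.0173. Tmem107, of the transition zone of cilia, was 1.19 higher (SE 0.17, adjusted p = 0.0413), with a second probe at -0.31. With the block the adjusted p was 0.118 for Ankrd12, 0.162 for Ppp2r2b and 0.155 for Inpp4b and Tmem107. The probe for U6, the spliceosomal RNA (Rnu6), was 1.67 higher (SE 0.23, adjusted p = 0.0413, but 0.155 with the block). U6 has many near-identical copies, so this value cannot be given to 1 gene. The clone D130067N01RIK differed by 2.27 (SE 0.31, adjusted p = 0.0413, and 0.0402 with the block). Of its dorsal arrays, 1 of 3 exceeded background. The predicted locus LOC380750 was at least 3.02-fold higher (adjusted p = 0.0336, but 0.136 with the block), a bound because no dorsal array was above background.

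The 8 probes lower in target were led by a predicted locus, LOC279056, which was at least 3.70-fold lower (adjusted p = 0.0332, but 0.0812 with the block), with no target array above background. Celf1, an RNA-binding protein that controls splicing and decay of messenger RNA, had a probe (5050768) that read 8.88, 8.10 and 8.58 in target and 10.63, 10.52 and 10.32 in dorsal. All 6 arrays were above background and the regions were well apart, with a difference of -1.97 (SE 0.23, adjusted p = 0.0332, but 0.132 with the block). In ventral the mean of this probe was 5.72, with 1 of 3 arrays above background. The 4 other Celf1 probes, all above background on the 6 arrays, gave 0.06, -0.18, -0.47 and 0.17, with adjusted p-values of 0.97, 0.843, 0.563 and 0.905. Only the first of the 5 Celf1 probes thus passed.

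Peg13, an imprinted noncoding RNA of the brain, read 9.02, 9.73 and 8.87 in target and 11.01, 10.93 and 10.65 in dorsal. Target array 2 was the nearest to dorsal, and the difference was -1.66 (SE 0.24, adjusted p = 0.048, but 0.155 with the block). Ing3, a subunit of the NuA4 histone acetyltransferase complex, read 8.45, 8.40 and 8.46 in target and 9.63, 9.51 and 9.40 in dorsal. These were the tightest target values among the 29, and the difference was -1.08 (SE 0.15, adjusted p = 0.0413, but 0.155 with the block). Its other probe gave 0.10 (SE 0.23, adjusted p = 0.912). The remaining 4 had no target array above background and have only bounds. Ppdpf was at least 2.49-fold lower (adjusted p = 0.0332, but 0.15 with the block), and the probe named RBMY1A1 at least 2.68-fold lower (adjusted p = 0.048, and 0.044 with the block). The pseudouridine synthase gene Pus10 was at least 1.27-fold lower (adjusted p = 0.0493, but 0.162 with the block), and LOC100043684 at least 1.82-fold lower (adjusted p = 0.0413, but 0.155 with the block).

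Second probes, which share a gene name but whose positions are not known here, bore on 14 of the passing genes through 24 further tested probes. Of these, 16 had the sign of the passing probe and 8 the opposite sign. An unadjusted p below 0.05 was reached by 2 of the 16, in Ankrd12 and Extl3, and by 0 of the 8, where that limit was met by 10.1% of all tested probes. The mean over all tested probes of a gene kept the sign in 14 of 14, at sizes from 0.42 to 1.54, and passed in 1. That mean includes the passing probe, which was chosen for its large difference, so the kept sign is no separate support. The other 15 passing probes were the only tested probe of their name. The bead-to-bead error of the unnormalized intensity was small for the 29, at most 0.10 on the log2 scale on any of the 6 arrays.

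The ventral arrays show where these genes lie in the remaining region. For 23 of the 29 the target mean was between the dorsal and the ventral means. For 26 of the 29 the ventral and dorsal regions also differed in the same direction as target and dorsal (adjusted p below 0.05 in the same fit). The comparisons share the dorsal arrays, so these counts are no separate evidence. The matching shares over all tested probes were not computed, so neither count is read as a trait of the 29. The 3 that differed from this pattern were Gal, Trak2 and D130067N01RIK, whose ventral level was near that of dorsal (6.43 against 6.15 for Gal, 7.17 against 6.58 for Trak2, and 4.95 against 5.17 for the clone). Each of these was higher in target than in ventral as well, at adjusted p-values of 0.0233, 0.0323 and 0.00804.

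Among peptide genes, 1 passed. Gal, the galanin precursor, read 7.74, 7.79 and 8.04 in target and 5.95, 6.10 and 6.42 in dorsal, with all 6 arrays above background. The lowest target array exceeded the highest dorsal array by over 1 unit. The level was 3.26-fold higher in target (difference 1.71, SE 0.23, n = 3, adjusted p = 0.0413). The block raised its adjusted p to 0.155, although the mice gave 1.79, 1.70 and 1.63. Calca, which encodes calcitonin and CGRP, read 7.84, 8.09 and 7.89 in target and 5.55, 5.57 and 7.0 in dorsal. Dorsal array 3 stood apart as the only dorsal array above background, and the difference of 1.9 did not pass (SE 0.36, adjusted p = 0.093). With 1 array left out, the adjusted p of Calca ran from 0.0149 to 0.318 and missed the limit in 8 fits. The lowest came without dorsal array 3, the dorsal array nearest to target, which left no dorsal array above background. That fit is thus no support for the difference.

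Nts had a positive difference at both of its probes, and neither passed. Probe 7320255 read 9.97, 9.81 and 9.82 in target and 9.24, 9.25 and 9.29 in dorsal, a difference of 0.61 (SE 0.23, adjusted p = 0.426). The groups did not overlap, and the arrays within each lay close together. Probe 1850095 had means of 8.19 and 7.37, a difference of 0.82 (SE 0.17, adjusted p = 0.125). The neurotensin receptor genes overlapped between regions. Ntsr1 gave -0.24 (SE 0.29, adjusted p = 0.818) and Ntsr2, which is known from astrocytes, -0.16 (SE 0.18, adjusted p = 0.796). Of 12 measured neuropeptide precursors, 1 passed and 8 had a positive difference (as had 47.4% of all genes), with a median of 0.10. Of 14 measured neuropeptide receptors, 0 passed and 4 were positive, with a median of -0.17. In that list Ramp1, a subunit of the CGRP receptor, gave -0.64 (SE 0.20, adjusted p = 0.326).

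Of the noradrenergic genes, the transporter Slc6a2 read 8.85, 9.20 and 8.78 in target and 7.42, 7.80 and 7.20 in dorsal at probe 1070279. Its groups lay about 1 unit apart, and the difference of 1.47 fell short of the limit (SE 0.24, adjusted p = 0.0682, and 0.175 with the block). It passed without background correction (adjusted p = 0.00963), a setting in which 0.499% of tested probes passed. Its other probe gave 0.57 (SE 0.20, adjusted p = 0.383). Of 9 measured genes in the list, 7 were positive, 1 passed, which was Gal, and the median was 0.17. The enzymes that make noradrenaline, Th and Dbh, and the transcription factor Phox2a were above background on 0 of the 6 arrays. The mean level of the noradrenergic markers, whether above background or not, was 6.21 to 6.42 on target arrays and 5.93 to 6.0 on dorsal arrays. The part of such cells in the Gal and Slc6a2 values was not tested.

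**Figure D3:**
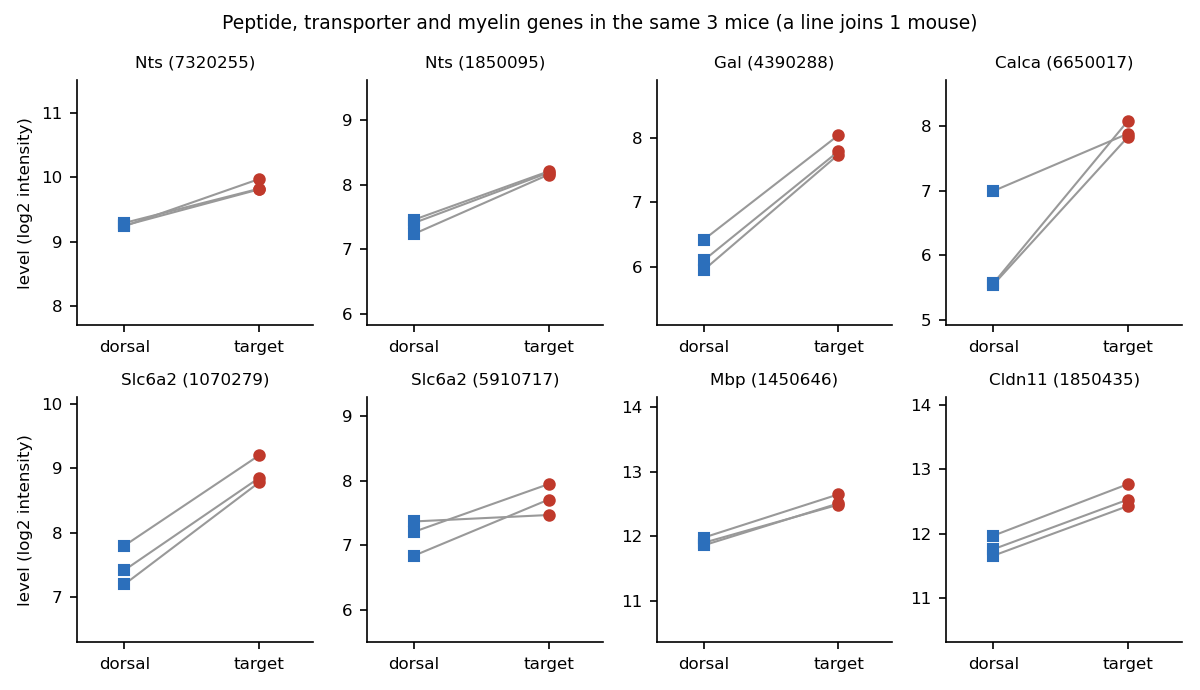
Levels (log2 intensity) of Nts, Gal, Calca, Slc6a2, Mbp and Cldn11 probes in dorsal (squares) and target (circles), with a line joining the arrays of 1 mouse. Every target level is above the dorsal level of the same mouse, and only the Gal probe (difference 1.71) passed the test. Panels differ in their range but span the same number of units.

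Cholinergic markers were near background in both regions although the mice carry a Chat-driven Cre. Slc18a3, the vesicular acetylcholine transporter, was above background on 0 of the 6 arrays, and no Chat probe on more than 1. Slc5a7 and Isl1 were at 0 arrays as well. The marker mean was 5.47 to 5.78 on target arrays and 5.61 to 5.65 on dorsal arrays, which overlap. In the wider list of cholinergic and cranial motor neurons, 10 genes were measured, 0 passed and the median was 0.20. Chodl, a motor neuron marker of mouse, gave 0.82 (SE 0.32, adjusted p = 0.426).

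No measured gene of fast transmission passed. Slc17a6, the vesicular glutamate transporter of the brainstem, read 12.13, 12.15 and 12.10 in target and 12.05, 12.07 and 12.20 in dorsal (difference 0.02, SE 0.15, adjusted p = 0.977). Gad1, which makes GABA, gave 0.17 (SE 0.22, adjusted p = 0.831), and Slc6a5, the glycine transporter of glycinergic neurons, 0.33 (SE 0.18, adjusted p = 0.573). When median centring replaced quantile scaling, the median of all probes moved to -0.36 and these 3 values became -0.38, -0.26 and -0.11. Tph2, the serotonin-synthesizing enzyme, gave 0.10 (SE 0.29, adjusted p = 0.941), with 2 of 3 target and 1 of 3 dorsal arrays above background. Among receptors, the glycine receptor subunit Glra2 gave 0.40 (SE 0.14, adjusted p = 0.404). The NMDA receptor subunit Grin3a read 9.09, 9.28 and 9.62 in target and 8.04, 8.12 and 8.82 in dorsal (1.01, SE 0.25, adjusted p = 0.207). No member of the lists of GABA and glycine neurons (21 measured), of glutamate neurons and receptors (21 measured) or of potassium and HCN channels (31 measured) passed.

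Monoamine receptors held 1 of the larger differences below the limit. Adrb1, the beta-1 adrenergic receptor, read 7.24, 7.86 and 7.19 in target and 5.21, 5.29 and 6.25 in dorsal, where only array 3 was above background. The gap of 1.84 was wide but variable (SE 0.38, adjusted p = 0.125). The serotonin receptor Htr1d gave 0.79 (SE 0.20, adjusted p = 0.226). Of the 17 measured genes in that list, 0 passed and 8 were positive.

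Myelin genes had differences of both signs, and none passed. Cldn11, of myelin tight junctions, read 12.77, 12.53 and 12.43 in target and 11.97, 11.76 and 11.66 in dorsal. All target arrays lay above all dorsal arrays, and the difference of 0.78 did not pass (SE 0.17, adjusted p = 0.154). The brightest probe of Mbp, the myelin basic protein gene, read 12.65, 12.49 and 12.51 in target and 11.98, 11.90 and 11.86 in dorsal. Its groups did not overlap either, and the difference of 0.64 did not pass (SE 0.15, adjusted p = 0.183). Both passed without background correction, with adjusted p-values of 0.0244 and 0.0277. Other Mbp probes gave 0.04, -0.56, -0.08 and -0.23. Across the 22 measured myelin genes, 5 (22.7%, against 10.1% of all genes) had an unadjusted p below 0.05, all with a positive difference, yet 13 of the 22 were negative and the median was -0.02. The mean of 5 oligodendrocyte markers was 11.88 to 11.99 on target arrays and 11.46 to 11.71 on dorsal arrays, which do not overlap. How far white matter in the dissected pieces accounts for any other value was not tested.

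Oligodendrocyte precursor genes had differences of both signs, and none passed. Sox10, which both precursors and mature oligodendrocytes express, gave 0.74 (SE 0.19, adjusted p = 0.224) and Ptprz1 0.58 (SE 0.20, adjusted p = 0.395). A second Ptprz1 probe gave -0.04 (SE 0.24, adjusted p = 0.974). Cspg4, the NG2 proteoglycan of precursors and pericytes, read 8.57, 8.49 and 8.46 in target and 9.11, 9.0 and 9.18 in dorsal (-0.59, SE 0.17, adjusted p = 0.288). Of 14 measured genes, 0 passed and the median was -0.01. An unadjusted p below 0.05 was found in 35.7% of them, 2 higher and 3 lower in target.

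No member of the lists for other cell types passed. Astrocyte markers averaged 9.51 to 9.66 on target arrays and 9.67 to 9.74 on dorsal arrays, which do not overlap, with 0 of 20 list genes passing, and Gfap gave -0.24 (SE 0.17, adjusted p = 0.682). Microglial markers averaged 7.28 to 7.53 and 7.13 to 7.53. The leukocyte lysosome gene Laptm5 gave 0.96 (SE 0.30, adjusted p = 0.343) with overlapping groups. Endothelial markers averaged 7.26 to 7.47 on target and 6.97 to 7.25 on dorsal arrays, which do not overlap, and the angiopoietin receptor Tek gave 1.16 (SE 0.44, adjusted p = 0.415). The wider list of 14 endothelial genes had 7 positive and 7 negative differences and a median of -0.04. Among its negative members, named after their values were seen, Ly6c1 gave -0.61, the transporter Slco1a4 -0.60 and the cadherin Cdh5 -0.51, without overlap between regions. Slc13a4, a sulfate carrier of the meninges, gave 1.24 (SE 0.34, adjusted p = 0.279), and the water channel Aqp1 of the choroid plexus 0.42 (SE 0.18, adjusted p = 0.48). Their lists held members of the opposite sign too, such as Kcnj8, a potassium channel of pericytes, at -0.69, and Prlr, the prolactin receptor, at -0.33. The list medians were 0.13 over 11 mural and meningeal genes and -0.02 over 7 ependymal and choroid plexus genes, and the meningeal and mural marker means overlapped (5.93 to 6.27 on target and 6.02 to 6.33 on dorsal arrays). Blood markers averaged 8.07 to 8.22 and 7.97 to 8.35, which overlap. The cerebellar markers averaged 6.11 to 6.36 on target and 5.93 to 6.14 on dorsal arrays. Among them the Purkinje cell gene Pcp2 gave 1.34 (SE 0.44, adjusted p = 0.364), and 2 of its 3 dorsal arrays exceeded background. Cbln1 gave -0.63 (SE 0.36, adjusted p = 0.608).

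Transcription factors that pattern the midbrain and hindbrain gave no passing member of 20 measured. Barhl1 read 5.79, 6.42 and 7.01 in target and was above background on no dorsal array, and was at least 1.70-fold higher in target without passing (adjusted p = 0.343). Gbx2, which is needed for the anterior hindbrain, gave -0.76 (SE 0.30, adjusted p = 0.433), and Tcf7l2, of Wnt signalling, 0.65 (SE 0.20, adjusted p = 0.329). Of 10 measured genes in the list of hindbrain Hox genes, 0 passed, 4 were positive and 6 negative, and the median was -0.07. Among its negative members, named after their values were seen, Hoxb3 gave -0.81 (SE 0.45, adjusted p = 0.594). Hoxc4 gave -0.56 (SE 0.25, adjusted p = 0.497), and neither overlapped between regions. In that list Meis1, a Hox cofactor, gave 0.92 (SE 0.37, adjusted p = 0.443), and Hoxb2 gave 0.77 (SE 0.45, adjusted p = 0.612), and 1 of its 3 dorsal arrays exceeded background.

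Clock genes had the second-highest list median, 0.24 over 13 measured, with 9 positive and 0 passing. Per2, a repressor in the circadian loop, read 7.71, 8.54 and 8.03 in target and 6.69, 6.75 and 7.32 in dorsal. The groups did not overlap, and the difference of 1.17 did not pass (SE 0.27, adjusted p = 0.178). A second Per2 probe gave 0.13 (SE 0.20, adjusted p = 0.864). Dbp, which the clock drives, gave 0.52 (SE 0.18, adjusted p = 0.373). Immediate early genes (11 measured) and heat shock and hypoxia genes (24 measured) had 0 passing and 0 with an unadjusted p below 0.05.

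Over all 28 lists, 378 of 627 genes were measured. Passing members numbered 3, all higher in target, namely Gal, Cdkn2d and Coasy, and they fell in 4 lists while the other 24 had none. With 1 probe per gene over all 13459 genes, 13 passed on the higher and 7 on the lower side. An unadjusted p below 0.05 was found in 46 of the 378, or 12.2%, against 10.1% of all tested probes. List medians ran from -0.17 for neuropeptide receptors to 0.29 for blood cell genes, of which 5 were measured.

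**Figure D4:**
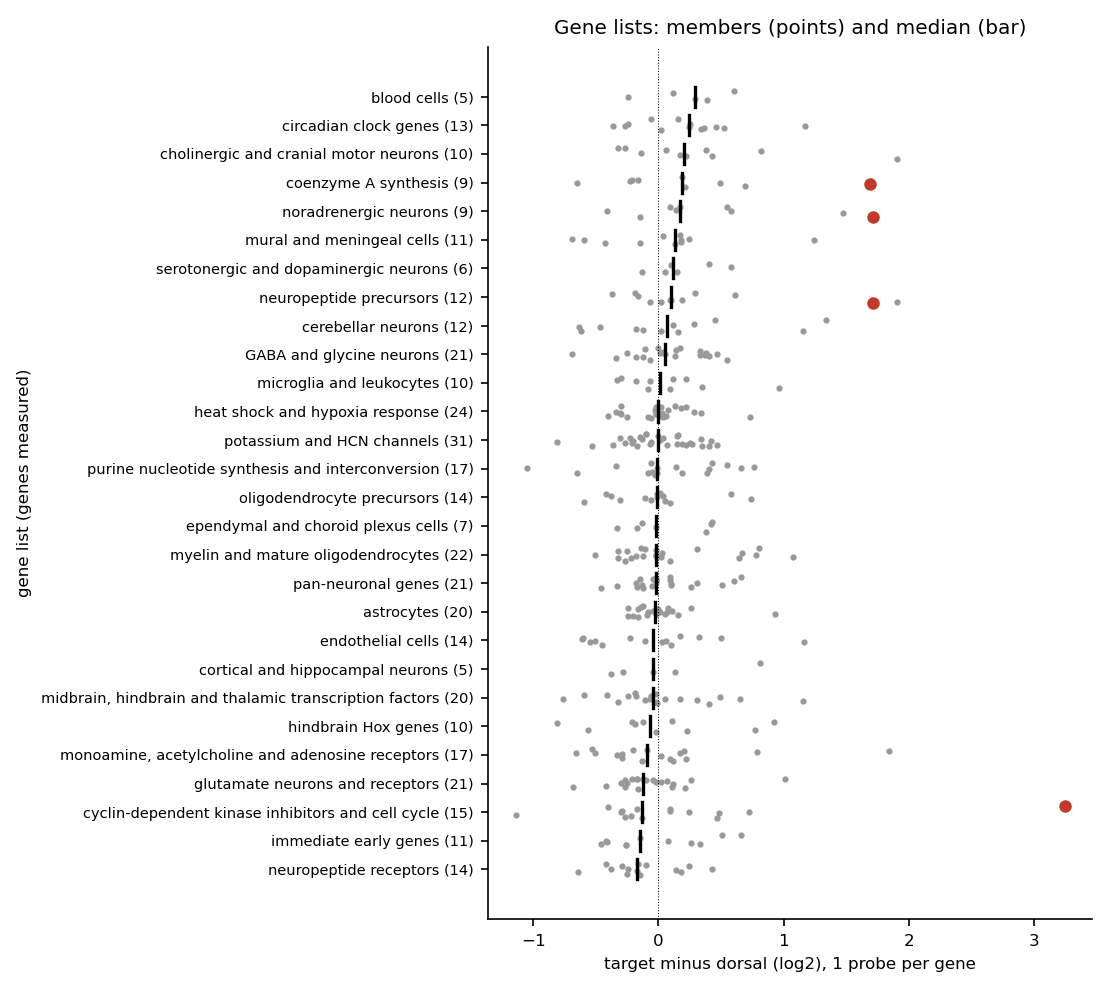
Target minus dorsal difference (log2) of each measured gene in the 28 lists, 1 point per gene, with the median of each list, which ran from -0.17 to 0.29. The points of most lists spread on both sides of 0, and passing genes occur in 4 lists.

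Below the limit lay genes whose differences were as large as those that passed but more variable between arrays. On the higher side the 10 largest were taken among probes with an unadjusted p below 0.01, no overlap and 1 sign in all mice. They also had to be detected on all arrays of the brighter region and not be clones, so larger differences outside these conditions are left out. Calca and Adrb1 were among these 10, whose adjusted p-values ran from 0.0682 to 0.213. The cell adhesion gene Sdk2 gave 2.01 (SE 0.37), and 1 of its 3 dorsal arrays exceeded background. The microtubule-affinity kinase gene Mark4 read 8.72, 9.61 and 9.33 in target and 7.27, 6.98 and 7.57 in dorsal (1.95, SE 0.34, adjusted p = 0.0779). The splicing factor Srsf7 gave 1.93, the Golgi glycoprotein Glg1 1.91, and the deubiquitinase Usp1 1.80. Zscan26 gave 1.95, the GTPase-activating protein gene Arhgap31 1.84 and the SUMO ligase gene Nsmce2 1.82. Other probes of these genes gave smaller or opposite values, namely -0.04 for Sdk2, -0.36 and 0.11 for Zscan26, and -0.05, -0.11 and -0.39 for Nsmce2. They gave 0.29 for Srsf7, 0.32 for Glg1 and 0.26 for Arhgap31.

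On the lower side the 10 largest under the same conditions had adjusted p-values from 0.0574 to 0.318. Timm9, a chaperone of the mitochondrial intermembrane space, gave -2.22 (SE 0.51), while its brighter probes gave -0.12 and 0.26. Cacna1g, the T-type calcium channel Cav3.1, read 7.13, 6.88 and 5.52 in target and 8.83, 8.10 and 8.55 in dorsal. Target array 3 was the lowest and not above background, and the difference was -1.99 (SE 0.44, adjusted p = 0.171). Other Cacna1g probes gave -0.40 and 0.54. Ap3b2, the neuronal subunit of the AP-3 vesicle coat, gave -1.84 (SE 0.28, adjusted p = 0.0574), and its other probes gave -0.29 and -0.35. The adhesion receptor Adgrl3 gave -1.84 (SE 0.38), with 5 other probes from 0 to 0.20. Surf4 gave -1.82, Xylt2 -1.73 and the adenylyl cyclase Adcy8 -1.69. Uck1, with no target array above background, was at least 1.91-fold lower. Rsrc2 gave -1.92 (SE 0.39, adjusted p = 0.125). Of these 20 genes on both sides, 8 passed without background correction, a setting in which 0.499% of all tested probes passed. The 20 were chosen for their differences on the same arrays, so this count is no separate support for them.

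**Figure D5:**
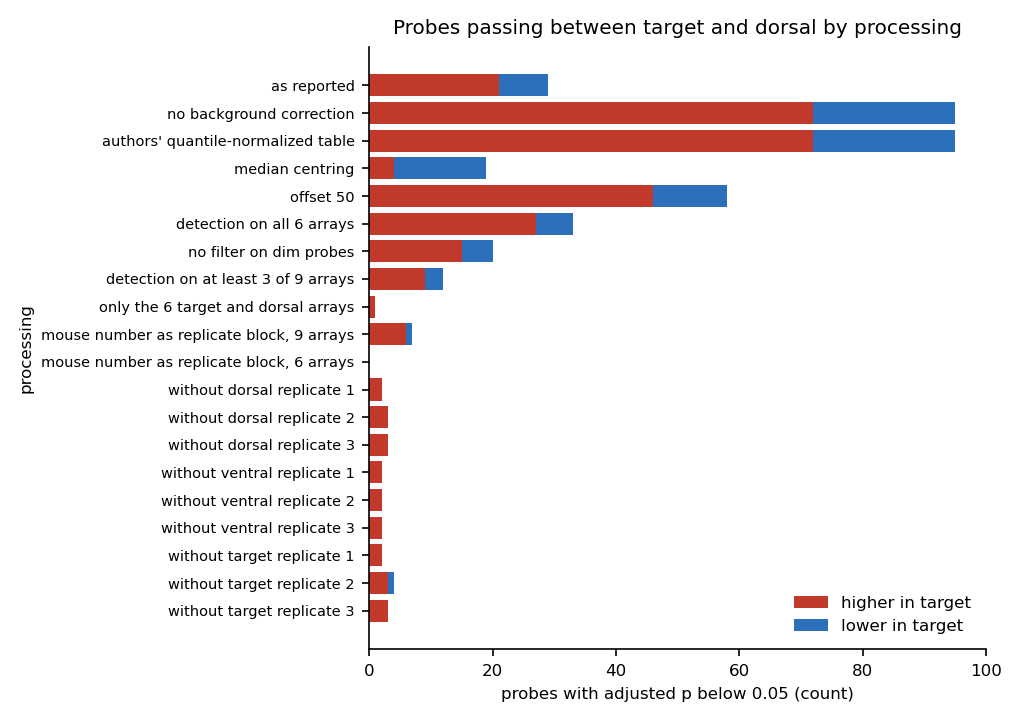
Number of probes passing (adjusted p below 0.05) on the higher and lower side in target under each setting of the processing and each choice of arrays. The number was 29 as reported, 95 without background correction, 7 with the mouse as a block and 2 to 4 with any 1 array left out.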

How the data were processed

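Total RNA was labelled with biotin and hybridised to Illumina mouse whole-genome BeadChips. Per the file headers, the authors exported intensity values with GenomeStudio 1.6.0 on a linear scale, without normalization and after quantile scaling, with a detection score and a bead count for each probe. Deposited bead counts and bead errors were used only to describe precision. A second deposited intensity table and the series matrix equalled the 2 exports (largest difference 0). The detection score is deposited as a fraction from 0 to 1 that the authors exported for each array, per the file headers. No source used here gives a genome build or probe positions.

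From the unnormalized intensities, limma 3.58.1 in R 4.3.3 computed neqc values: normexp background correction with negative controls inferred from 1 minus the detection score, an offset of 16, quantile scaling of all 9 arrays and log2. The model was fitted with lmFit and eBayes to all 9 arrays with region as the term, and the Benjamini-Hochberg adjustment ran over 19032 probes. The fit was tested on simulated data. Names were updated through RefSeq: a symbol was matched for 12679 tested probes and a synonym for 3484, while 2869 stayed under the name on the array. A list gene is represented by its brightest probe. Where no array of the dimmer region was above background, its level on each array was taken as the higher of the probe's own value and the lowest value above background, which gives the bounds. Equal replicate numbers mark the same mouse, per the column names, so the block is reported. Deviations from region means correlated at -0.08, -0.11 and 0.15 between target and dorsal arrays of 1 mouse, and from -0.17 to 0.23 for other pairs.

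The members and lists were chosen with earlier results of these data known. Genes were named if they passed, if they were among the 10 largest differences in each direction that did not pass (unadjusted p below 0.01, no overlap, 1 sign in all mice, detected in the brighter region, not a clone), if they were among the 3 lowest p-values below 0.05 of a list, or if on a list of genes named whatever their values. A few genes that this rule takes and 1 marker gene are not named in the text. Alternatives were no background correction, the authors' quantile table, median centring, an offset of 50, other detection filters, fits of 6 arrays, the mouse block, the mean over a gene's probes, and leaving out each array.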

Additional observations from a re-analysis of the deposited data

How the results depend on the processing

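The count of 29 passing probes rose to 95 without background correction and to 95 in the authors' quantile-scaled table (72 higher and 23 lower in each), and to 58 with an offset of 50. It was 19 with median centring (4 higher, 15 lower, against 21 and 8), where the median of all probes moved to -0.36. It was 12 with detection on at least 3 of 9 arrays, 33 with detection on all 6 and 20 with no filter on dim probes. It was 1 with only the 6 target and dorsal arrays (2157 with an unadjusted p below 0.05), 7 with the mouse as a replicate block over 9 arrays and 0 with that block over 6 arrays (2020 below 0.05 unadjusted). Leaving out 1 array gave 2 to 4. Cdkn2d kept its call in 18 of 19 alternatives and Adssl1 in 16 of 18. None of the 29 changed sign.

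Signs turned for genes that had not passed. With median centring, the values were -0.38 for Slc17a6, -0.26 for Gad1, -0.11 for Slc6a5, -0.03 for Glra2 and -0.02 for the second Adssl1 probe. Mbp was -0.04 as a mean over its tested probes. With 1 array left out, Ntsr1 ran from -0.46 to 0.06 (the latter without dorsal array 1), Slc17a6 from -0.01 (without dorsal array 1) to 0.07, and Tph2 from -0.06 (without dorsal array 3) to 0.31. The causes were not tested. The chip as a block was not run, since the headers used here name no chip.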

Other observations

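Rsrc2, which encodes a protein with a serine- and arginine-rich coiled coil, had probes that differed in sign. Probe 2060008 gave a target minus dorsal difference of -1.92 (SE 0.39, adjusted p = 0.125). Probe 5340102 gave 1.25 (SE 0.22, adjusted p = 0.0748), at means of 9.58 in target and 8.34 in dorsal, and probe 2450369 gave 0.53 (SE 0.21, adjusted p = 0.436). None of the 3 passed, and the 3 probes were singled out after its values were seen.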
